A study of Mus musculus with 18 samples.

Results

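Prostates of mice with a prostate-specific deletion of Elac2 (KO) were compared directly with prostates of mice carrying the A537T substitution in ELAC2 at 10 weeks of age. The comparison covers 6 of the 18 libraries of the series: libraries 13AF, 14AF and 15AF of KO and libraries 16AF, 17AF and 18AF of A537T. They were chosen by their place in the deposited tables, where each mutant line has a table of its own, and no wild type (WT) library enters the test. KO mice were homozygous for a conditional Elac2 allele whose exon 8 lies between loxP sites and is cut out by Cre under the probasin promoter (Pb-Cre), so the deletion is limited to cells that use this promoter. A537T mice were homozygous for a knock-in made with CRISPR-Cas9 and carried it in the whole body, so the lines differ in the tissue range as well as in the kind of allele. All 6 samples are total RNA of the ventral and lateral prostate lobes of males, with the strain given in the labels as C56NL/6N. The labels give 3 replicates for each group, and the study describes RNA of 3 mice for each line. They do not say which column is which replicate, and the p-values measure the spread between these libraries.

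ELAC2 is the endonuclease RNase Z, which cuts the trailing sequence from the 3′ end of precursor tRNAs in the nucleus and in mitochondria. In mitochondria the cuts at tRNAs also free the mRNAs and rRNAs that lie between them on long precursor transcripts. The prostate is an androgen-dependent gland whose lobes secrete different proteins. Spermine-binding protein is typical of the ventral lobe, beta-microseminoprotein of the lateral lobe, and transglutaminase 4 of the anterior and dorsal lobes. The seminal vesicles, which lie next to the prostate and secrete the clotting proteins of semen, are reported as removed in the dissection.

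The parts of Elac2 that the alleles change are shown here in the reference sequence, since the gene counts cannot display either change. Elac2 (ENSMUSG00000020549.14) is read forward at chr11:64979038-65002069 (GRCm38). Exon 8 is coding and spans chr11:64985563-64985621. Its 59 bases leave 2 over after whole codons. The codon that A537T changes lies in exon 17 of 25, at chr11:64997968-64997970, and is in capitals in the window chr11:64997956-64997982, where it codes for alanine.
Elac2 exon 8: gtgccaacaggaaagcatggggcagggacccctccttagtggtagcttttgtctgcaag
Elac2 codon of A537T: tgcagcctcacgGCTgtgtttgtgtcc

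Elac2 itself was counted in every library. Its normalized read count, meaning reads divided by a size factor that makes the 6 libraries comparable, was 120, 110 and 116 in KO and 164, 155 and 148 in A537T. The groups did not overlap, with means of 115 ± 4.84 (SD, n = 3) in KO and 156 ± 8.24 in A537T. The log2 fold change was -0.43 with a standard error (SE) of 0.12 and a 95% interval of -0.71 to -0.15, and it did not pass the test over all genes (adjusted p = 0.0932, limma). A gene count includes transcripts that lack exon 8, and the KO samples also hold cells in which Cre is not expressed.

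Libraries held 6569642 to 9110374 reads. The libraries differed in tissue markers before any gene was tested. In KO the 12 genes of a list of seminal vesicle secretion took 9.51%, 6.57% and 10.3% of reads, and in A537T 0.201%, 0.142% and 0.0401%. The 35 skeletal muscle genes took 0.0685%, 2.13% and 0.0632% in KO and 4.50%, 3.33% and 1.59% in A537T, so library 14AF lay among the A537T libraries and apart from the other KO libraries. The list of ventral and lateral prostate secretion took 3.91%, 2.63% and 0.513% in KO and 10.5%, 9.09% and 7.90% in A537T. Library 15AF stood apart within KO through the ventral genes, and library 18AF within A537T through bladder lining (urothelium) genes and a low count of Msmb. In these bulk samples, fewer cells of a type and less RNA per cell cannot be told apart. The part that these tissues play in the gene results was not tested beyond the fits with tissue scores given below. The 2 tables were also made separately, and the reads of a WT library that both hold differed between them for 62.1 to 64.1% of the genes with reads. For the genes tested, the median offset between the tables in WT was 0.0151 on the log2 scale. Its percentiles 1 and 99 were -0.216 and 0.251.

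**Figure D1:**
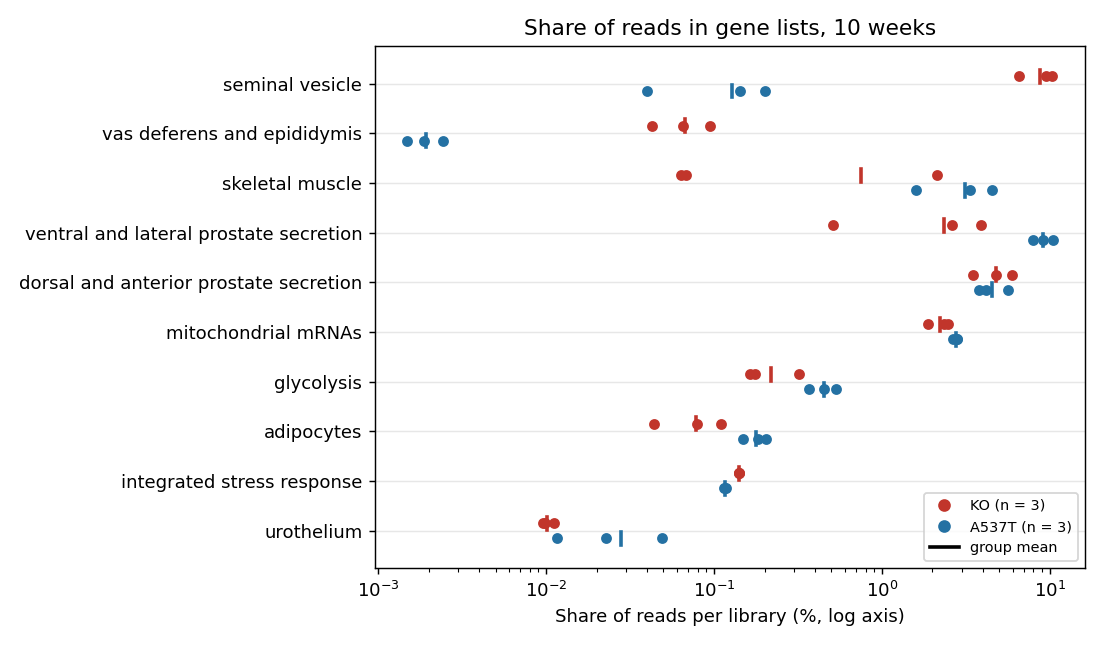
Share of the reads of each library (%, log axis) that fell in 10 gene lists, with 1 point for each of the 3 KO (red) and 3 A537T (blue) libraries and a vertical bar for the group mean. The seminal vesicle list lies at 6.57 to 10.3% in KO and 0.0401 to 0.201% in A537T, while the dorsal and anterior list overlaps between the groups.

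Over all genes, 601 were higher and 200 lower in KO than in A537T among the 15111 tested, at an adjusted p under 0.05. This is 5.30% of the genes tested, of which 3.98% were higher and 1.32% lower. Testing was limited to genes whose normalized count averaged 10 or more, and used limma on log2(normalized count + 1), and fold changes are on that scale. At an unadjusted p under 0.05 there were 3335 genes, and the groups did not overlap for 26.6% of all genes tested. The median log2 fold change of all genes was -0.01. edgeR called 597 genes higher and 171 lower, and DESeq2 846 and 573.

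Single libraries moved these counts. Without library 17AF 276 genes were higher and 11 lower, without 15AF 233 and 39, and without 13AF 251 and 67. Without library 14AF, the KO library with muscle reads, 574 were higher and 471 lower. Called in every one of the 6 fits that left out 1 library were 217 of the genes higher and 10 of the genes lower in KO. Among the gene lists, such genes were only in those of seminal vesicle, vas deferens and epididymis, integrated stress response, glycolysis, and dorsal and anterior secretion. With a skeletal muscle score, the mean log2 count of the genes of that list, as a covariate 126 genes were higher and 2 lower. When the spread of the 12 mutant libraries of both ages was used, 3 genes were higher and 1 lower, namely Fgfbp1, Ly6e, Lmo2 and Pcdh18. With seminal vesicle and skeletal muscle scores as covariates in that fit, Cr2, Pfkfb3 and Bpgm were higher and Svs4 and Flnc lower. Svs4 is itself part of the seminal vesicle score.

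**Figure D2:**
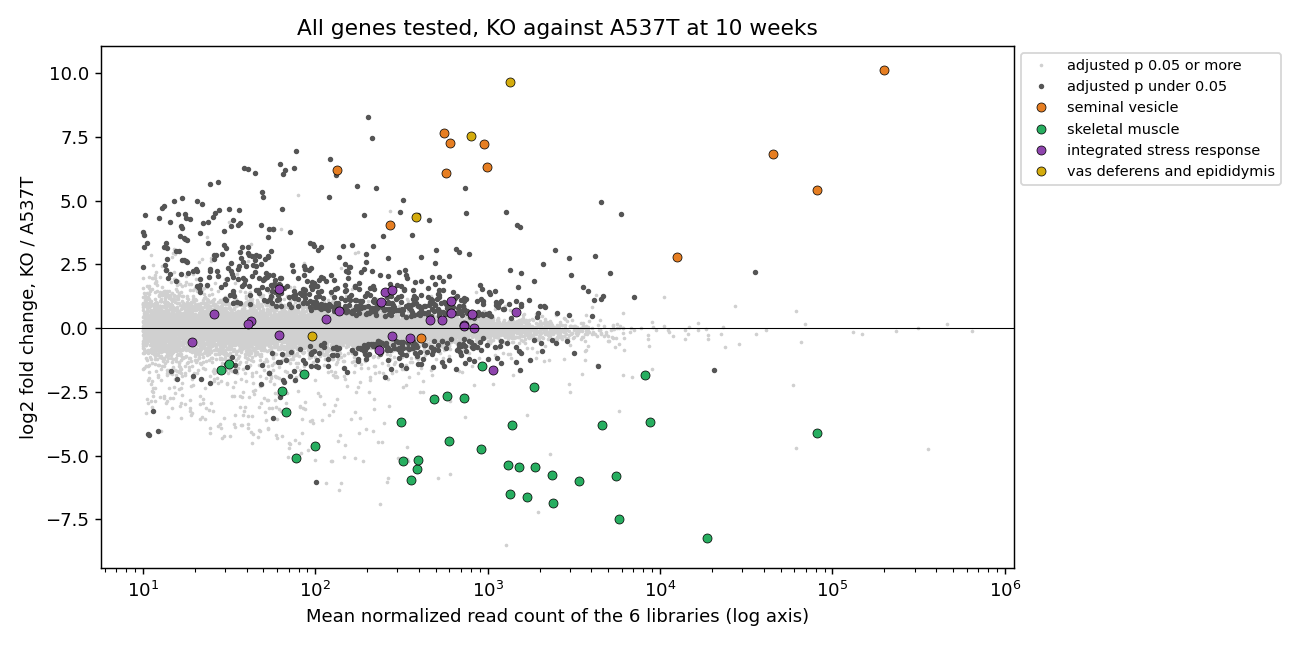
log2 fold change of KO over A537T against the mean normalized read count of the 6 libraries (log axis) for all 15111 genes tested, with genes at an adjusted p under 0.05 in dark grey and members of 4 lists in colour. Genes of the seminal vesicle and of the vas deferens and epididymis lists lie in the upper part except 1 of each list below 0, and all 35 skeletal muscle genes lie below 0 without passing the test.

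Seminal vesicle secretory genes were the most abundant of the genes higher in KO. Of the 12 genes of the list, 11 were higher in KO and 0 lower, against 3.98% and 1.32% of all genes. The median log2 fold change of the list was 6.26. Svs2 encodes semenoglobulin 2 of the copulatory plug and lies at chr2:164235929-164238466 on the reverse strand. It had normalized read counts of 411012, 313214 and 463663 in KO and 527, 379 and 208 in A537T. The lowest KO library lay far above the highest A537T library. The log2 fold change was 10.14 (SE 0.33, adjusted p = 2.82e-05). Svs5 (chr2:164332740-164334396, forward strand) had 171203, 123785 and 177757 in KO and 7511, 5225 and 1227 in A537T, a log2 fold change of 5.42 (adjusted p = 0.00332). Pate4, a small secreted cysteine-rich protein, had 94274, 70663 and 101773 in KO and 1735, 1261 and 218 in A537T, with a log2 fold change of 6.81 (adjusted p = 0.00238). Within each group the libraries kept one order, with 18AF the lowest of A537T and 14AF the lowest of KO for all 3 genes.

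The less abundant members of this list rose as well. Svs1 differed by 7.21, Svs6 by 6.33, Svs3a by 7.25, Svs3b by 7.64, Sva by 6.19, 9530003J23Rik, a lysozyme-like gene, by 6.09 and Ceacam10 by 4.04 on the log2 scale. Of the 11 genes called, 8 were called in all 6 fits with 1 library left out. Svs1, Svs3a and Svs4 were not called in every one of them. Over 12 libraries with both tissue scores the log2 fold change was -4.67 for Svs4 (adjusted p = 0.0014), -3.09 for Svs5 and -1.93 for Pate4, the opposite direction, and 0.92 for Svs2 (adjusted p = 0.818). These genes are themselves part of the seminal vesicle score, so this fit cannot tell whether they differ beyond that score. Spinkl, a serine protease inhibitor-like gene, was the exception of the list. It had 667, 173 and 232 in KO and 729, 509 and 164 in A537T, so its groups overlapped (log2 fold change -0.40, adjusted p = 0.783).

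The seminal vesicle reads also had another make-up in the 2 lines. Svs4 had normalized read counts of 24792, 15940 and 22937 in KO and 6228, 4119 and 1079 in A537T, a log2 fold change of 2.78 (adjusted p = 0.0389), against 10.14 for Svs2. For each read of Svs4 there were 16.6, 19.6 and 20.2 reads of Svs2 in KO and 0.0847, 0.0920 and 0.193 in A537T. Svs2 made up 57.9 to 59.7% of the reads of the list in KO but 3.11 to 7.08% in A537T. For Svs4 these shares were 2.96 to 3.49% (KO) against 35.4 to 36.8% (A537T), and for Spinkl 0.0299 to 0.0940% against 4.30 to 5.61%. The ratio of Svs2 to Svs4 in the KO libraries was near that in the 4 mutant libraries at 30 weeks with seminal vesicle reads, which had 17.2 to 22.2. In WT libraries at 10 weeks it was 42.5 in 10AF and 6.52 in 11AF. The A537T libraries held seminal vesicle transcripts at a lower level and in other proportions, with Svs2 a small part of them. Ratios of raw reads between genes are not corrected for gene length, which is the same in every library.

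**Figure D3:**
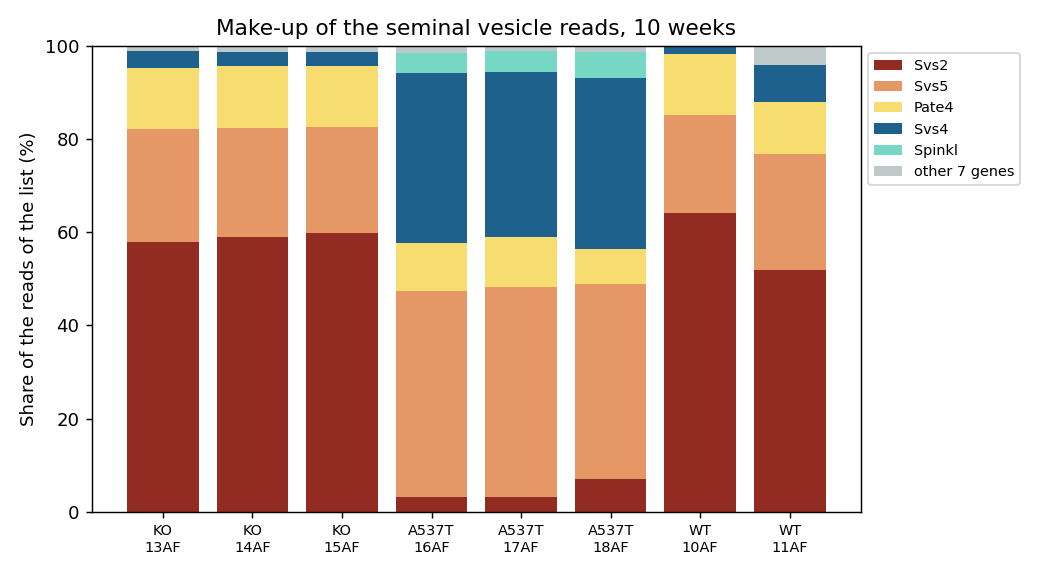
Share (%) of the reads of the 12 seminal vesicle genes that came from Svs2, Svs5, Pate4, Svs4, Spinkl and the other 7 genes, as stacked bars for the 3 KO, 3 A537T and the WT libraries 10AF and 11AF at 10 weeks. Svs2 fills 57.9 to 59.7% of the bar in KO and 3.11 to 7.08% in A537T, where Svs4 fills 35.4 to 36.8%.

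The sequence before the start of Svs5 is shown as an example of a member that rose, because genes of this list moved together and are known as androgen-dependent. The letters TGTTCT, the hexamer core of the androgen response element, were searched on both strands in the 250 bases before each RefSeq start (GRCm38.p6). They were found for 7 of the 10 genes of the list with an entry and in 9 of their 12 promoters, against 16.1% of all 32851 promoters. A match is a description of the sequence. The window of Svs5 is chr2:164332515-164332764 on the forward strand, and its single match is in capitals.
Svs5: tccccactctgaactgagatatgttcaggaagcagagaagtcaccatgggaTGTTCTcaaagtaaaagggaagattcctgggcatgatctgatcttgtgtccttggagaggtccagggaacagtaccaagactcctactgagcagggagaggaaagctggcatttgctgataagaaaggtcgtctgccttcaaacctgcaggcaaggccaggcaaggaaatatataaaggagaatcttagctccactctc

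Outside the lists of seminal vesicle and skeletal muscle genes, leading genes were sought among those with a symbol other than Gm and a number. They needed an adjusted p under 0.05, groups that did not overlap and a mean normalized count no lower than 50. Such genes numbered 438 higher and 179 lower in KO. The 12 with the largest differences in each direction are described here. Leading the genes higher in KO was Crisp1, a cysteine-rich secretory protein of the epididymis that binds to sperm. Crisp1 had 2821, 2154 and 3100 in KO and 1.01, 2.69 and 3.76 in A537T, a log2 fold change of 9.67 (SE 0.32, adjusted p = 2.82e-05). Akr1b7, an aldose reductase-like protein of the vas deferens, had 3431, 567 and 796 in KO and 5.03, 7.17 and 3.76 in A537T (log2 fold change 7.55, adjusted p = 0.00083). Library 13AF was the highest of the KO libraries for Akr1b7, and no A537T library came near any of them. Spink8, an epididymal protease inhibitor, also rose (log2 fold change 4.36). These 3 of the 4 tested genes of the vas deferens and epididymis list were higher and 0 lower. Of all genes 3.98% were higher and 1.32% lower. The other 10 of the 14 genes of that list did not reach the mean count of the test. The whole list took 0.0941%, 0.0424% and 0.0653% of reads in KO and 0.00149 to 0.00242% in A537T.

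Transcription factors of epithelia were among the leading genes. Elf5, an ETS factor of glandular epithelium, had 1562, 1036 and 1721 in KO and 33.2, 31.4 and 26.3 in A537T. All KO libraries lay above all A537T libraries, with a log2 fold change of 5.50 (SE 0.20, adjusted p = 4.44e-05). Emx2, a homeobox factor of urogenital development, had 266, 183 and 336 in KO and 6.04, 3.58 and 0.940 in A537T. Pou3f3, a POU domain factor, had 467, 336 and 519 against 20.1, 9.86 and 2.82. Their log2 fold changes were 6.00 and 5.51. Foxi1, a factor of proton-secreting epithelial cells, had 461 reads in the KO libraries together and 1 read in those of A537T, a ratio of 505 after scaling with a 95% counting interval of 90.2 to 19999.

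Enzymes and secreted proteins made up the rest of the 12. The protease inhibitor gene Serpina1f had 1227 reads in KO and 1 read in A537T, a ratio of 1345 with a counting interval of 241 to 53159. Counting intervals do not cover the spread between mice. Cyp4a12a, a fatty acid hydroxylase under androgen control, had 467, 333 and 475 in KO and 2.01, 3.58 and 0 in A537T, a log2 fold change of 7.45. Cyp2j13 of another cytochrome P450 family had a log2 fold change of 6.65 and the carboxylesterase Ces5a one of 6.27. Cuzd1 had 376 reads in KO and 3 in A537T and D730048I06Rik 355 and 2. All 12 leading genes higher in KO were called in all 6 fits with 1 library left out. They were also called with the skeletal muscle score as covariate, except Ces5a (adjusted p = 0.0584). In the fit of 12 libraries with both tissue scores 0 of the 12 were called, and their adjusted p ran from 0.183 for Cuzd1 to 0.669 for D730048I06Rik.

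Other genes with large differences included enzymes, a cyclin and receptors. Pfkfb3, which makes the activator of glycolysis fructose-2,6-bisphosphate, had 9567, 6307 and 10604 in KO and 362, 285 and 204 in A537T (log2 fold change 4.96, adjusted p = 0.000121). Bpgm, the enzyme of 2,3-bisphosphoglycerate, differed by 3.96, with 3208, 2206 and 3297 against 244, 203 and 123. In the 12-library fit with both scores Pfkfb3 differed by 1.62 and Bpgm by 1.182 on the log2 scale. Both were called there (adjusted p = 0.0492 for Pfkfb3, adjusted p = 0.0498 for Bpgm). Neither was called in that fit without the scores (adjusted p = 0.156 for Pfkfb3, adjusted p = 0.178 for Bpgm). Ccnd1, the cyclin D1 gene of G1 progression, had 3778, 2814 and 4129 in KO and 610, 597 and 664 in A537T, a log2 fold change of 2.50 (SE 0.15, adjusted p = 0.000227). Clu, the secreted chaperone clusterin, had 5204, 4382 and 5995 against 748, 843 and 704 (log2 fold change 2.75). Cr2, complement receptor 2, had 116, 38.3 and 89.2 in KO, from 246 reads, and 0 reads in A537T. Hoxd8, a homeobox factor, differed by 1.90 (-0.35 with both tissue scores) and Gabrp, a GABA receptor subunit of epithelia, by 5.13. Clu, Ccnd1, Pfkfb3, Bpgm, Cr2, Gabrp and Hoxd8 were picked after their values were seen.

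**Figure D4:**
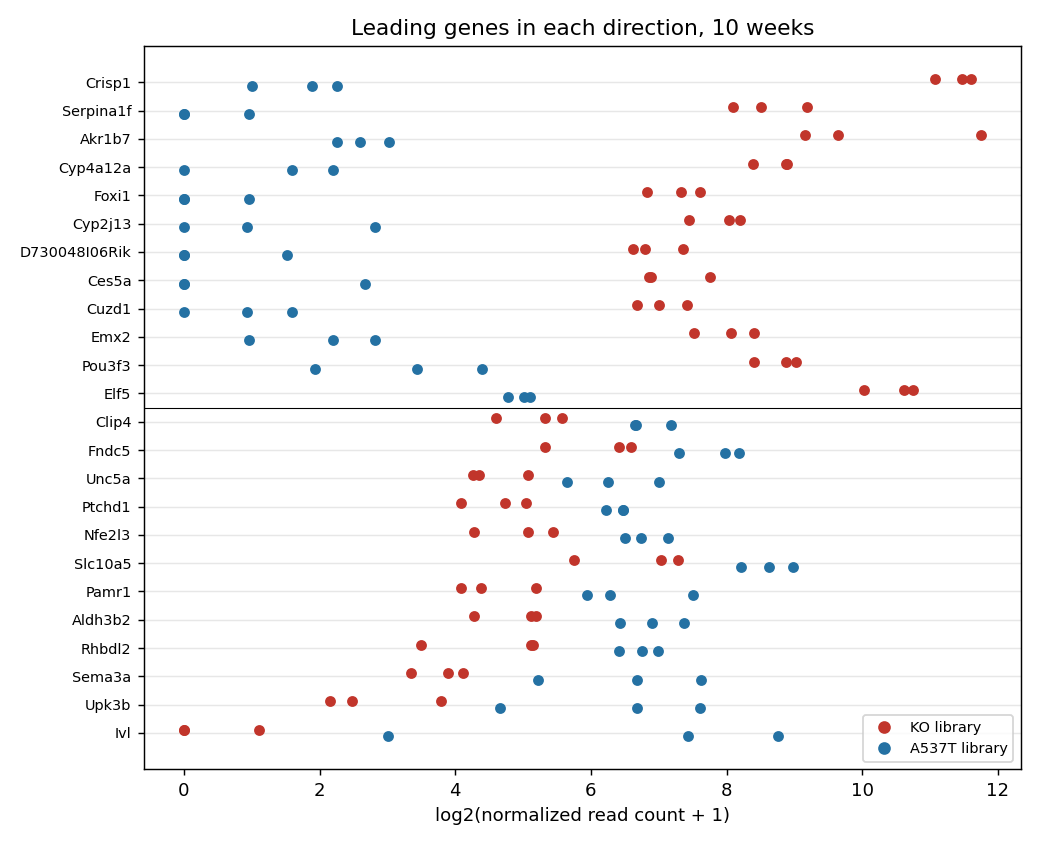
log2(normalized read count + 1) of the 12 leading genes in each direction, with 1 point for each KO (red) and A537T (blue) library. The upper 12 genes are separated by wide gaps between the groups, and for the lower 12 the groups lie closer while Ivl, Upk3b and Sema3a spread widely in A537T.

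The higher genes had a common order in libraries that the test did not use. At 30 weeks, 1 KO library (5AF) and 1 A537T library (8AF) had almost no seminal vesicle reads, with 16 and 15 reads of the list. The other 4 mutant libraries had 6.34 to 9.20%. Of the 601 genes higher in KO at 10 weeks, 545 (90.7%) were lowest in 5AF among KO and lowest in 8AF among A537T at 30 weeks, against 23.5% of all genes tested. Without the seminal vesicle genes these were 534 of 590 (90.5%). Of the 200 genes lower in KO, 128 (64.0%) were highest in both libraries, against 24.6% of all genes tested. Libraries 5AF and 8AF were picked by their seminal vesicle reads, and this is a description of order with no test.

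Named genes show this order. On a scale common to 15 libraries, Elf5 had 1436, 10.6 and 1080 in the KO libraries 4AF, 5AF and 6AF and 1136, 4.56 and 1570 in the A537T libraries 7AF, 8AF and 9AF at 30 weeks. In WT at 10 weeks it had 833, 346 and 6.33 in 10AF, 11AF and 12AF, where seminal vesicle genes took 4.65%, 1.78% and 0.000847% of reads. Ccnd1 fell to 345 in 5AF and 366 in 8AF from 2544 to 4975 in the other 4. Its WT values were 2347, 1285 and 435. Pfkfb3 had 165 in 5AF and 145 in 8AF against 6014 to 9316 in the other 4. Bpgm had 118 and 104 against 2462 to 3815. Elf5 and Ccnd1 were thus high in libraries of KO, A537T and WT that held seminal vesicle reads, and low in those that held few.

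**Figure D5:**
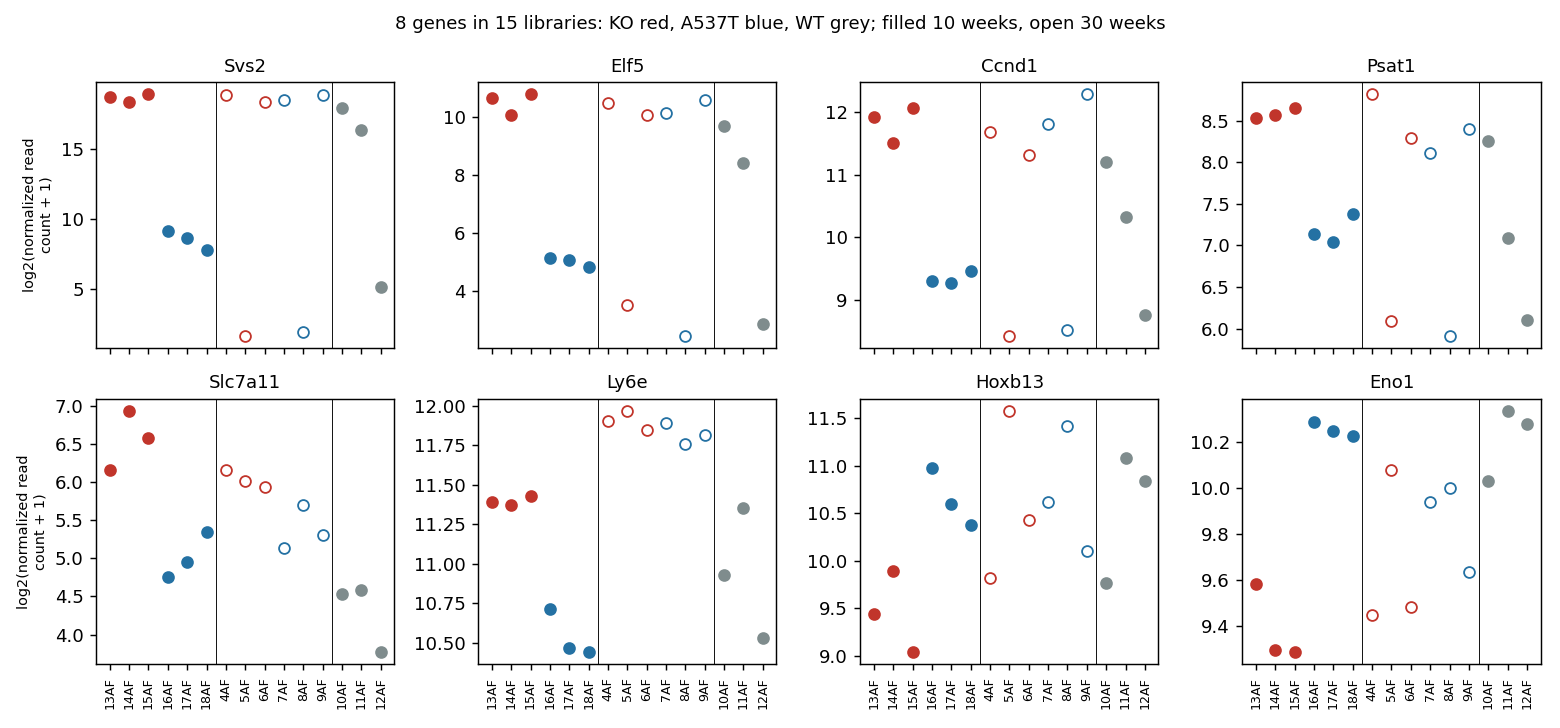
log2(normalized read count + 1) of 8 genes in the 6 libraries compared (filled red and blue), the KO and A537T libraries at 30 weeks (open red and blue) and the WT libraries at 10 weeks (grey). Svs2, Elf5, Ccnd1 and Psat1 are low in 16AF, 17AF, 18AF, 5AF, 8AF and 12AF, and Psat1 is also low in 11AF, while Slc7a11 and Ly6e do not drop in 5AF.

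Fgfbp1 and Ly6e did not have this order. Fgfbp1, a secreted carrier of fibroblast growth factors, had 244, 235 and 279 in KO and 63.4, 43.9 and 29.1 in A537T, a log2 fold change of 2.51 (SE 0.27, adjusted p = 0.0028). At 30 weeks its values were 181, 207 and 225 in KO and 211, 117 and 210 in A537T. Ly6e, a membrane protein of the LY6 family, had 2608, 2554 and 2671 in KO and 1622, 1361 and 1314 in A537T (log2 fold change 0.87, adjusted p = 0.00434). All 6 libraries at 30 weeks had 3470 or more of Ly6e, above every library at 10 weeks. Lmo2, a LIM domain protein of blood and vessels, differed by 1.21 (adjusted p = 0.00922), and it did have its lowest 30-week values of each group in 5AF and 8AF. These 3 genes were also picked after their values were seen.

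Some genes of the integrated stress response and of serine and amino acid supply were higher in KO. This programme raises amino acid synthesis, import and tRNA charging when translation is checked, and it is a known response to mitochondrial faults. Of 24 tested genes of the list 7 were higher and 0 lower, against 3.98% and 1.32% of all genes, and 18 had a positive fold change. The median was 0.32. The list took 0.140%, 0.141% and 0.141% of reads in KO and 0.116%, 0.115% and 0.117% in A537T. The groups did not overlap.

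Enzymes of serine and one-carbon synthesis were among the genes that rose. Shmt2, the mitochondrial serine hydroxymethyltransferase, had 430, 342 and 466 in KO and 135, 154 and 144 in A537T, a log2 fold change of 1.50 (SE 0.14, adjusted p = 0.0017). Psat1, phosphoserine aminotransferase, had 358, 367 and 390 in KO and 135, 125 and 156 in A537T (log2 fold change 1.42, adjusted p = 0.000947). Amino acid carriers rose as well. The cystine importer Slc7a11 had 68.1, 117 and 91.5 against 25.2, 28.7 and 37.6, a log2 fold change of 1.55 (SE 0.26, adjusted p = 0.0174). Slc7a5, the large neutral amino acid carrier, had 764, 757 and 967 against 391, 386 and 399 (log2 fold change 1.07, adjusted p = 0.00315), and its partner subunit Slc3a2 differed by 0.60. The tRNA charging enzymes Wars and Sars differed by 0.63 and 0.57.

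Atf4, the transcription factor of the programme, did not pass the test. Atf4 had 814, 856 and 841 in KO and 862, 847 and 769 in A537T (log2 fold change 0.02, 95% interval -0.19 to 0.23). Asns, asparagine synthetase, had 488, 577 and 484 against 408, 405 and 428 and did not pass the test (log2 fold change 0.31, adjusted p = 0.138). Nupr1 went the other way, at a log2 fold change of -1.65 (adjusted p = 0.166), with 770, 928 and 158 in KO and 1804, 1602 and 1223 in A537T. Shmt2, Psat1 and Slc7a5 were called in all 6 fits with 1 library left out. With both tissue scores over 12 libraries the log2 fold change was 0.03 for Psat1, 0.37 for Shmt2 and 0.08 for Slc7a5, and 1.84 for Slc7a11 (adjusted p = 0.18). Psat1 had 67.0 in 5AF and 59.3 in 8AF and 274 to 449 in the other 4 libraries at 30 weeks, whereas Slc7a11 had 63.5 in 5AF and 70.2 and 60.4 in 4AF and 6AF.

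The window before Slc7a11 is shown as that of the called member with the largest increase. The letters TGATGNAA, a core of the element that ATF4 and C/EBP proteins bind, were searched on both strands of the 250 bases before each start. They were found for 8 of the 24 genes of the list with an entry (8 of 28 promoters, 28.6%), against 3.45% of all promoters. The window of Slc7a11 is chr3:50443614-50443863, read on the reverse strand. Both matches are in capitals, the second as the reverse complement.
Slc7a11: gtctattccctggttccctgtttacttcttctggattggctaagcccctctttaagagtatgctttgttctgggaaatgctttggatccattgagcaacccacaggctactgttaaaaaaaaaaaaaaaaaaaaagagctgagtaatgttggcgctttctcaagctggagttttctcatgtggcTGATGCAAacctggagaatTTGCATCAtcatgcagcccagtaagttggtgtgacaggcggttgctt

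Genes of protein folding in the endoplasmic reticulum (ER) were mixed. Of 30 genes 1 was higher and 2 lower in KO, against 3.98% and 1.32% of all genes, and the median was -0.08. Ern1, the sensor IRE1, had 2084, 1868 and 1994 in KO and 1221, 910 and 740 in A537T (log2 fold change 1.08, adjusted p = 0.015). Parts of the degradation machinery of the ER were lower in KO. Herpud1 had 1416, 1623 and 1321 in KO and 3116, 2715 and 2267 in A537T (log2 fold change -0.89, adjusted p = 0.0135), and the ubiquitin ligase Syvn1 had 717, 906 and 833 against 1438, 1432 and 1269 (log2 fold change -0.76, adjusted p = 0.0119). Ern1, Herpud1 and Syvn1 were called in 3, 3 and 4 of the 6 fits with 1 library left out. With the muscle score none of them was called (adjusted p = 0.135, 0.173 and 0.169). The abundant chaperones overlapped between the groups, with log2 fold changes of -0.32 for Hspa5, 0.07 for Hsp90b1 and 0.23 for P4hb. Their adjusted p were 0.306, 0.881 and 0.378.

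Mitochondrial transcripts, which ELAC2 helps to free from their precursors, did not pass the limma test in either direction. Of the 11 mRNAs 0 were higher and 0 lower, and 9 had a negative fold change, with a median of -0.21. The largest was that of mt-Co3, a subunit of complex IV, with 23643, 26182 and 18706 in KO and 35457, 34447 and 33268 in A537T (log2 fold change -0.60, adjusted p = 0.0905). mt-Co1 and mt-Co2 of the same complex had log2 fold changes of -0.53 and -0.41 and groups that did not overlap. Such groups were found for 3 of the 11 mRNAs, against 26.6% of all genes tested. DESeq2 called mt-Co1, mt-Co2 and mt-Co3 lower in KO (adjusted p = 0.0167, 0.0476 and 0.000897), and edgeR called none of them. mt-Nd2 and mt-Nd6 of complex I were at 0.02 and 0.16. The mRNAs together took 2.34%, 2.47% and 1.88% of reads in KO and 2.80%, 2.82% and 2.67% in A537T. The exact permutation p was 0.1, the smallest that 3 against 3 libraries allow, and 0.27 after adjustment over 27 lists. The rRNA genes mt-Rnr1 and mt-Rnr2 overlapped between the groups, at log2 fold changes of 0.16 and -0.11, and library 18AF was the lowest of all for both.

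Nuclear genes of oxidative phosphorylation leaned to lower values in KO. Of 76 genes 0 were higher and 3 lower, against 3.98% and 1.32% of all genes. A negative fold change was found for 74 of them, while 48.4% of all genes had a positive one. The median was -0.33 against -0.01 for all genes. The complex III subunits Uqcrb and Uqcr10 had log2 fold changes of -0.65 (adjusted p = 0.0343) and -0.62 (adjusted p = 0.0446) and Ndufb6 of complex I one of -0.68 (adjusted p = 0.0464). Uqcrb had 270, 334 and 256 in KO and 453, 413 and 481 in A537T. The 3 genes with the highest counts did not pass, with log2 fold changes of -0.34 for Atp5b, -0.31 for Atp5a1 and -0.31 for Sdha. Each of the 3 called genes was called in 1 of the 6 fits with 1 library left out. When the muscle score entered the fit the adjusted p of these 3 ran from 0.288 to 0.387, with log2 fold changes of -0.46 for Uqcrb, -0.50 for Uqcr10 and -0.71 for Ndufb6, and the part of muscle in the lower values was not tested.

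Of 23 glycolysis genes 3 were lower and 0 higher in KO, against 1.32% and 3.98% of all genes. There were 22 fold changes below 0 and a median of -0.85. Eno1, the enolase of most tissues, had 745, 607 and 605 in KO and 1209, 1170 and 1133 in A537T (log2 fold change -0.85, SE 0.11, adjusted p = 0.00575). Eno1 was called in all 6 fits with 1 library left out, but not with the muscle score (adjusted p = 0.0613) or in the 12-library fit (adjusted p = 0.0758). Pgam1 differed by -0.71 and Pkm by -0.97, and neither was called with the muscle score (adjusted p = 0.194 for Pgam1, adjusted p = 0.270 for Pkm). The muscle-rich Aldoa had 1662, 6423 and 1334 in KO and 12554, 8918 and 5688 in A537T, so that 14AF lay among the A537T libraries. Gapdh, at 1678, 3594 and 1557 in KO and 6247, 5259 and 3786 in A537T, did not pass (adjusted p = 0.0767).

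The factors that act beside ELAC2 on tRNA ends were 0 higher and 0 lower of 22, with a median of -0.08 and a range of -0.55 to 0.27. The La protein gene Ssb, whose product guards tRNA 3′ ends, had 454, 462 and 435 in KO and 531, 484 and 481 in A537T. None of the 9 genes the study names passed the test. Bcl2, an inhibitor of apoptosis, came nearest, with 285, 276 and 303 against 194, 134 and 205 (log2 fold change 0.72, adjusted p = 0.0603). Trp63 of basal cells was at 0.08, Hif3a at 0.57, Tst at -0.02, Gldc at -0.19, Slirp at -0.50, Nono at 0.09, Sfpq at 0.23 and Hsd17b10 at -0.30 on the log2 scale. The study names Tst, Gldc, Bcl2, Trp63 and Hif3a as mRNAs changed in KO and A537T against WT. Its figure of these mRNAs is of mice at 30 weeks, which is not the age compared here. Slirp is named for a protein change against controls, and Nono, Sfpq and Hsd17b10 for association of their proteins with ELAC2. No WT library entered the comparison here, so those changes were not tested. A change of equal size in both lines would not show.

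The secretory genes of the ventral lobe varied widely within KO. Sbp, spermine-binding protein of the ventral lobe, had 222799, 144351 and 321 in KO and 719291, 600898 and 466803 in A537T. Library 15AF was far below all others. The groups did not overlap, but the log2 fold change of -4.75 had an SE of 2.23 and did not pass (adjusted p = 0.267). Spink1, a ventral protease inhibitor, went with it, at 36777, 27112 and 53.8 in KO and 120668, 101098 and 81879 in A537T. Msmb of the lateral lobe had 5004, 5528 and 5237 in KO and 5583, 3787 and 443 in A537T, with 18AF the lowest. Pbsn, the probasin gene whose promoter drives Cre in KO, overlapped between the groups, with 14282, 20217 and 20462 against 19011, 18896 and 17772 (log2 fold change -0.04).

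In that list 0 of 15 genes were higher and 2 lower in KO, against 3.98% and 1.32% of all genes. Hoxb13, a homeobox factor of the prostate, had 673, 915 and 509 in KO and 1941, 1492 and 1257 in A537T (log2 fold change -1.18, SE 0.24, adjusted p = 0.0335). Azgp1, zinc-alpha-2-glycoprotein, had 1114, 1216 and 828 against 2437, 2121 and 1610 (log2 fold change -0.96). Each was called in 2 of the 6 fits with 1 library left out. At 30 weeks Hoxb13 was highest in 5AF and 8AF, at 3061 and 2742 against 902 to 1569 in the other 4 mutant libraries. With both tissue scores its log2 fold change was 0.00.

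Transcripts of the other lobes were present in both groups. Reads of the dorsal and anterior list made up 3.48 to 5.98% of KO libraries and 3.80 to 5.66% of A537T libraries. Tgm4 had 28653, 44005 and 49011 in KO and 34704, 41257 and 49484 in A537T (log2 fold change -0.07), and 9530053A07Rik was at 0.00. Beside Clu, Wfdc15b was higher (297, 198 and 243 against 85.5, 52.0 and 30.1, log2 fold change 2.22, adjusted p = 0.014) and Cyp2f2 lower (log2 fold change -0.86). On the scale of 15 libraries Wfdc15b had 0.705 in 5AF and 0 in 8AF, against 337 to 527 in the other mutant libraries at 30 weeks. Clu had 1988 and 830 against 4663 to 6267. These are the orders of the seminal vesicle reads. Tgm4 had this order in KO at 30 weeks, with 31.7 in 5AF against 23335 and 18713 in 4AF and 6AF. In A537T it did not, with 2422 in 8AF against 954 and 601 in 7AF and 9AF. Androgen receptor targets were 2 higher and 1 lower of 19, against 3.98% and 1.32% of all genes, with a median of -0.08. The transcription factor gene Gata2 differed by 0.78, the kinase gene Camkk2 by 0.84 and the transporter gene Abcc4 by -0.80.

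Among keratins and epithelial markers 3 of 16 were higher and 1 lower, against 3.98% and 1.32% of all genes. Of the 16 genes 10 had a negative fold change, and the median was -0.10. Krt14 of basal cells had 121, 106 and 132 in KO and 51.3, 53.8 and 38.5 in A537T (log2 fold change 1.31, adjusted p = 0.00968). Cd24a and the tight junction gene Cldn3 differed by 0.58 and 0.64. Krt19 of luminal cells had 1490, 1731 and 1649 against 2555, 2303 and 2495 (log2 fold change -0.60, adjusted p = 0.0163). None of the called genes of this list was called in all 6 fits with 1 library left out. With both tissue scores over 12 libraries the direction turned for Wfdc15b (-2.24) and Gata2 (-1.04). Krt18 overlapped between the groups, at a log2 fold change of -0.08.

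Ivl and Upk3b led the genes lower in KO. Ivl, involucrin of the cornified envelope, had 0, 0 and 1.144 in KO and 7.04, 171 and 430 in A537T. The A537T libraries themselves spread widely, from near the KO values in 16AF to the highest in 18AF, and the adjusted p was 0.0468. Upk3b, the uroplakin 3B gene, had 3.45, 12.8 and 4.58 against 24.1, 101 and 194 (log2 fold change -3.51). The urothelium list, whose uroplakins line the bladder, was 0 higher and 3 lower of 7, against 3.98% and 1.32% of all genes. The lower genes were Krt20 and Upk1a beside Upk3b. Upk3a had 1 read in KO and 739 in A537T and did not pass the test (adjusted p = 0.0531). The list took 0.00959%, 0.0111% and 0.00980% of reads in KO and 0.0116%, 0.0228% and 0.0490% in A537T. None of the 3 called urothelium genes was called in all 6 fits with 1 library left out.

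The other leading genes lower in KO had smaller differences. The bile acid carrier relative Slc10a5 had 130, 154 and 52.6 in KO and 503, 393 and 296 in A537T (log2 fold change -1.92). Ptchd1, a patched domain protein, had 31.9, 25.5 and 16.02 against 87.5, 73.5 and 87.4, and Nfe2l3, a stress-linked leucine zipper factor, 42.3, 32.5 and 18.3 against 106, 89.6 and 140. The guidance genes Sema3a and Unc5a differed by -2.72 and -1.74. Log2 fold changes were -2.13 for Rhbdl2, -2.05 for the aldehyde dehydrogenase Aldh3b2, -2.03 for Pamr1, -1.72 for the irisin precursor Fndc5 and -1.67 for Clip4. None of these 12 genes was called in all 6 fits with 1 library left out. Pcdh18, a protocadherin, had 56.0, 49.9 and 50.3 in KO and 200, 127 and 138 in A537T (log2 fold change -1.53, adjusted p = 0.00614), and it passed in the 12-library fit (adjusted p = 0.0225) but not with both scores (adjusted p = 0.183). Flnc, a filamin of muscle, had 992, 1300 and 884 against 2454, 2378 and 2574 (log2 fold change -1.24, adjusted p = 0.00383), and it passed with both scores (adjusted p = 0.0498) but not without them (adjusted p = 0.0909).

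Genes of striated muscle had the lowest fold changes, and 0 of 35 were higher or lower by the test. All 35 fold changes were negative, with a median of -4.63. Myh4, a fast myosin heavy chain, had 25.0, 22709 and 0 in KO and 46328, 31552 and 11365 in A537T. Library 14AF lay within the A537T range, so the log2 fold change of -8.25 had an SE of 3.13 (adjusted p = 0.178). Ttn, Neb, Myh1, Atp2a1 and Acta1 behaved likewise, with log2 fold changes of -4.10, -3.67, -5.80, -7.50 and -1.86. Fat cell genes were 0 higher and 3 lower of 15, against 3.98% and 1.32% of all genes, with a median of -1.43. Cfd, the adipokine adipsin, had 1254, 628 and 508 in KO and 2475, 2335 and 2032 in A537T (log2 fold change -1.62, adjusted p = 0.0255), Retn differed by -1.47 and Plin4 by -0.74. None of these fat cell genes was called in all 6 fits with 1 library left out. Car3 did not pass (log2 fold change -1.80, adjusted p = 0.129).

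Stroma, vessels and immune cells showed few differences. Smooth muscle genes were 0 higher and 0 lower of 17, and Myh11 and Acta2 had log2 fold changes of 0.22 and -0.01. Of 20 collagen and matrix genes 1 was higher and 1 lower, against 3.98% and 1.32% of all genes. Neither was called in all 6 fits with 1 library left out, and 18 fold changes were negative. Col18a1 of basement membranes had 738, 683 and 848 in KO and 340, 382 and 464 in A537T (log2 fold change 0.94), while Col6a3 had 2837, 3234 and 1212 against 6760, 5861 and 6259 (log2 fold change -1.49) and Col3a1 was at -0.50. Endothelial genes were 0 higher and 0 lower of 16. Interferon response genes were 0 higher and 0 lower of 33, with a median of -0.20, and genes of MHC class II 0 and 0 of 7.

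Of the macrophage list 0 of 17 genes were higher and 1 lower, against 3.98% and 1.32% of all genes. The lower one was Cd163, a scavenger receptor (log2 fold change -0.73, adjusted p = 0.0311). It was not called in any of the 6 fits with 1 library left out. Only 5 of 18 plasma and B cell genes and 1 of 17 T cell genes reached the mean count of the test, and 0 were called. Igkc of antibody light chains had 44.8, 20.9 and 21.7 in KO and 57.3, 72.6 and 68.6 in A537T (log2 fold change -1.24, adjusted p = 0.0713). Cell cycle genes were 1 higher and 0 lower of 30, against 3.98% and 1.32% of all genes. Of them 25 had positive fold changes, with a median of 0.17. Mki67, the proliferation marker, had 427, 486 and 506 against 362, 310 and 293 (log2 fold change 0.56, adjusted p = 0.0451). Mki67 was called in 1 of the 6 fits with 1 library left out, and not with the muscle score (adjusted p = 0.237). Top2a of the same list leaned the other way, with 247, 275 and 262 against 368, 268 and 359 on the scale of 15 libraries. Of 12 nerve and glia genes 1 was higher and 0 lower, against 3.98% and 1.32% of all genes. It was Ncam1, with 648, 542 and 736 against 220, 315 and 352 (log2 fold change 1.13, adjusted p = 0.0195, and -0.25 with both tissue scores).

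Shares of reads were compared by list as well. For 10 of the 27 lists the groups did not overlap, each at the smallest exact permutation p of 0.1 (two-sided, 20 arrangements), and after adjustment over the lists the lowest p was 0.27. With 3 against 3 libraries no share could reach 0.05.

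Whether the lines differed at 10 weeks in another way than at 30 weeks was tested over the 12 mutant libraries. No gene of 15082 passed the limma interaction test (0% called), while 1467 had an unadjusted p under 0.05. edgeR and DESeq2 were not run on the interaction. Svs2 differed by 10.14 at 10 weeks and -0.13 at 30 weeks, a difference of 10.25 with an SE of 6.79 (adjusted p = 0.628). At 30 weeks each line held libraries with and without seminal vesicle reads. Fgfbp1 and Ly6e had much smaller errors, with a difference of 2.26 (SE 0.39) and 0.77 (SE 0.13), and did not pass either (adjusted p = 0.336 for both). Between KO and A537T at 30 weeks 2 genes of 15082 were called, namely the antibody segment gene Igkv1-135 and the predicted gene Gm47283, and 511 had an unadjusted p under 0.05. The count of the interaction test moved with single libraries. Without 14AF 108 genes were called, 103 of them more negative at 10 weeks, without 8AF 18, without 16AF 5 and without 5AF 4, and without each of the other 8 libraries 0.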

How the data were processed

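RNA of ventral and lateral prostate was sequenced by the study (Illumina NovaSeq, TruSeq). Per the labels, the authors trimmed the reads (Trim Galore 0.4.1, cutadapt 1.18), aligned them with STAR 2.7.3a to GRCm38.p6, quantified them with Salmon and normalized with DESeq2 1.26. The deposited tables hold a signal per gene, made by the authors from counts through a size factor for each library, in a table for each line and age with the WT libraries. The authors' own comparisons with WT (fold changes and s-values) were not used, nor were 6 columns of WT at 30 weeks. Size factors of tables made separately are not comparable, so whole reads were recovered (100% of the values of the 6 libraries within 0.05 of a whole read) and the 6 libraries normalized together by median-of-ratios size factors. Gene names matched 54450 of 55469 identifiers exactly and 55107 after versions were dropped.

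Genes with a mean of at least 10 were tested with limma 3.58.1 (mean trend, pseudocount 1, R 4.3.3), with Benjamini-Hochberg adjustment at 0.05. On simulated data of the 15111 genes, 31% of 100 genes changed by 1 and 85% of 100 genes changed by 2 on the log2 scale were recovered, with 17 false calls. Alternatives were edgeR 4.0.16 and DESeq2 1.42.0 on the recovered reads, other scalings, filters and pseudocounts, tissue scores as covariates, the offset between tables subtracted, the 12 mutant libraries together and each library left out. Shares were compared with exact permutation tests over 27 lists. A count of 0 was taken to allow 3 reads. Intervals of read ratios cover counting error only. Those of log2 fold changes come from the limma fit and rest on the spread between libraries.

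The libraries, lists and genes were chosen with earlier results of these data known, and symbols of the lists were matched to the tables by name. The rule named Elac2, the mitochondrial mRNAs and rRNAs and genes the study names, per list the 3 members with the highest counts (6 for seminal vesicle and skeletal muscle), and the 12 largest differences in each direction with a mean of at least 50. Those 12 also needed an adjusted p under 0.05 and groups that did not overlap. Called members of lists were added, and 18 genes, some of them also under the rule, were added after their values were seen. Sequences come from the GENCODE M21 transcripts (GRCm38) and the RefSeq promoter table (GRCm38.p6).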

Additional observations from a re-analysis of the deposited data

How the results depend on the processing

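No paired analysis was possible because the columns of the tables carry no replicate numbers. The number of genes called was 1419 with DESeq2 (573 lower in KO), 474 with no mean trend (57 lower) and 128 with the skeletal muscle score (126 higher, 2 lower), against 801. It was 4 over the 12 mutant libraries (3 higher, 1 lower) and 5 with both tissue scores (3 higher, 2 lower), among them Svs4, a member of a scored list. At a minimum mean of 100 there were 392 higher, and lower genes numbered 419 on the values as deposited and 301 with the offset between tables subtracted. Of the called genes 75.03% were higher in KO, 56.0% as deposited, where the median of all genes was -0.10, 59.6% with DESeq2 and 88.0% with no mean trend. With 1 library left out 272 to 1045 were called, 233 to 574 higher and 11 to 471 lower, and the interaction with age gave 0 to 108 and, with both scores, 1. The causes were not tested.

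Svs4, Svs5, Pate4, Myh4, Atp2a1 and Acta1 are themselves members of the lists that were scored. Of the 134 genes named, log2 fold changes turned as follows. With both scores they were -4.07 for 9530053A07Rik, -0.19 for Atf4, 0.88 for Atp2a1, -1.04 for Gata2, 0.00145 for Hoxb13, -0.35 for Hoxd8, 0.13 for Hsd17b10, 0.12 for Krt18, -0.71 for Myh11, 1.39 for Myh4, -0.25 for Ncam1, 0.00825 for Nupr1, -1.93 for Pate4, 0.11 for Slirp, -4.67 for Svs4, -3.09 for Svs5, -0.63 for Trp63, -2.24 for Wfdc15b, -0.13 for mt-Nd2 and -0.21 for mt-Rnr1. With the muscle score they were -0.00569 for 9530053A07Rik, 0.14 for Acta1, -0.22 for Myh11, 0.0900 for Pbsn, -0.14 for Trp63 and 0.12 for mt-Rnr2. As deposited they were -0.0861 for 9530053A07Rik, -0.0666 for Atf4, -0.0151 for Hsp90b1, -0.00758 for Trp63 and -0.0632 for mt-Nd2. With the offset subtracted they were -0.019 for 9530053A07Rik, 0.000687 for Acta2 and -0.0187 for Atf4. At the same total they were 0.0431 for Acta2, 0.0146 for Pbsn and 0.0286 for Tst, with TMM -0.00451 for 9530053A07Rik, and over 12 libraries -0.0179 for 9530053A07Rik. Ranges with 1 library left out crossed 0 for 9530053A07Rik (-0.167 to 0.237), Acta2 (-0.325 to 0.313), Atf4 (-0.0335 to 0.0499), Gldc (-1.22 to 0.591), Hsp90b1 (-0.0819 to 0.203), Myh11 (-0.109 to 0.553), Pbsn (-0.122 to 0.133), Spinkl (-1.03 to 0.045), Tgm4 (-0.216 to 0.167), Trp63 (-0.16 to 0.308), Tst (-0.14 to 0.0748), mt-Nd2 (-0.21 to 0.175), mt-Nd6 (-0.0839 to 0.334), mt-Rnr1 (-0.221 to 0.389) and mt-Rnr2 (-0.36 to 0.0351). No named gene turned with pseudocount 8, minimum means of 1 or 100, edgeR, DESeq2 or no mean trend.

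Differences in share, in percentage points, turned with seminal vesicle and skeletal muscle reads taken from the total for tRNA end processing (0.00121), mitochondrial rRNAs (0.182), ER genes (0.0689), keratins (0.00175) and endothelium (0.00162). With 1 library left out they ran from -0.00219 to 0.000396 for tRNA end processing, -0.599 to 0.238 for mitochondrial rRNAs, -0.0649 to 0.0303 for ER genes, -0.405 to 0.845 for the dorsal and anterior list, -0.0239 to 0.00838 for keratins, -0.000281 to 0.00405 for interferon genes, -5.66e-05 to 0.00404 for MHC class II, -0.0024 to 0.00306 for endothelium, -0.234 to 0.161 for smooth muscle and -0.00213 to 0.00662 for nerve and glia. With 3 libraries a group, 31% of simulated differences of 1 on the log2 scale were recovered.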
